A study of Sus scrofa with 48 samples.

Results

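Ezrin, radixin and moesin form a small family of proteins that tie actin filaments to the plasma membrane. One end of each protein binds membrane receptors and scaffolds, the other binds actin, and phosphorylation opens the folded molecule so that both ends can bind. AKAP12 (gravin) is a scaffold at the membrane that holds protein kinases A and C, MACF1 is a giant spectraplakin that crosslinks actin filaments and microtubules, and caldesmon (CALD1) binds actin and tropomyosin and restrains actomyosin. The expression of these 6 genes (EZR, RDX, MSN, AKAP12, MACF1 and CALD1) was described in pig longissimus muscle.

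The samples came from 48 barrows of a pair of purebred Large White lines, bred apart over generations for low or high residual feed intake (RFI), the feed eaten beyond what growth and maintenance predict. A low RFI pig is thus the more efficient one. The low line (RFIneg in the labels) and the high line (RFIpl) were each given free access to 1 of the diets. These were high in fat and fiber (HF) or low in fat (LF), which made 4 groups of 12 pigs. The study describes the diet other than HF as one of standard composition. Each pig was hybridised on its own single-colour 60 K array of oligonucleotide probes of 60 bases, ages were not given in the sources used here, and each line is 1 selected population without a replicate line.

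The probes were those that the array names after a member gene, in the gene name or in brackets in the description, plus probes assigned to these genes in the study's lists of very important predictors (VIP) of feed efficiency. The 6 genes, of 12987 gene symbols read from the array's annotation, had 29 of its 60305 probes, 22 named by the array and 7 added from the VIP lists. A probe had to stand well above background on 12 arrays or more to be kept, and 28 of these probes did, among 42125 on the whole array. EZR had 4 of its 5 probes kept, RDX 5 of 5, MSN 5 of 5, AKAP12 7 of 7, MACF1 5 of 5 and CALD1 2 of 2. The EZR probe left out (O655) was well above background on 2 arrays. Of the 28 probes, 26 were well above background on all 48 arrays. The other two were EZR probe A_72_P368153, above it on 47 arrays, and MSN probe A_72_P440511, above it on 36. Of the 28 probes, 9 stood in a VIP list. The study chose these lists on these pigs together with pigs of another array. The line differences of the 9 probes are therefore a description and not independent evidence. No probe of the 29 had a genome position in the array files.

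The arrays lay on 6 slides, each with 2 arrays of every group, and were scanned on 2 days. The share of probes detected well above background was 59.2% to 74.2% per array, and array pairs correlated at 0.966 to 0.991. All 9 skeletal muscle fibre markers were well above background on all 48 arrays. Levels are given on the log2 scale against the mean of each array's tested probes, so that 0 is the array mean, and levels of different probes are not compared. Differences between lines are high RFI minus low RFI, averaged over the diets, from limma's moderated test with Benjamini-Hochberg adjustment over all 42125 probes and a threshold of 0.05. The pigs are separate animals, and the p-values measure the spread between them within these lines. In a bulk muscle sample, fewer cells of a type and less RNA per cell cannot be told apart.

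Between the lines, 8 of the 28 probes passed the test (28.6%), of which 5 had higher and 3 lower levels in high RFI pigs, where 16.4% of all probes tested did (6.57% higher and 9.85% lower). Both shares depended on the processing, as given further below. The 8 probes were 4 of RDX, 2 of MSN, 1 of AKAP12 and 1 of MACF1, and no probe of EZR or CALD1 passed. Among the 9 probes in a VIP list 1 passed, and among the 19 in none 7 did. The median line difference was 0.10 over the 28 probes and -0.03 over all probes. In all, 23 of the 28 differences were above 0, against 41.8% of all probes.

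**Figure D1:**
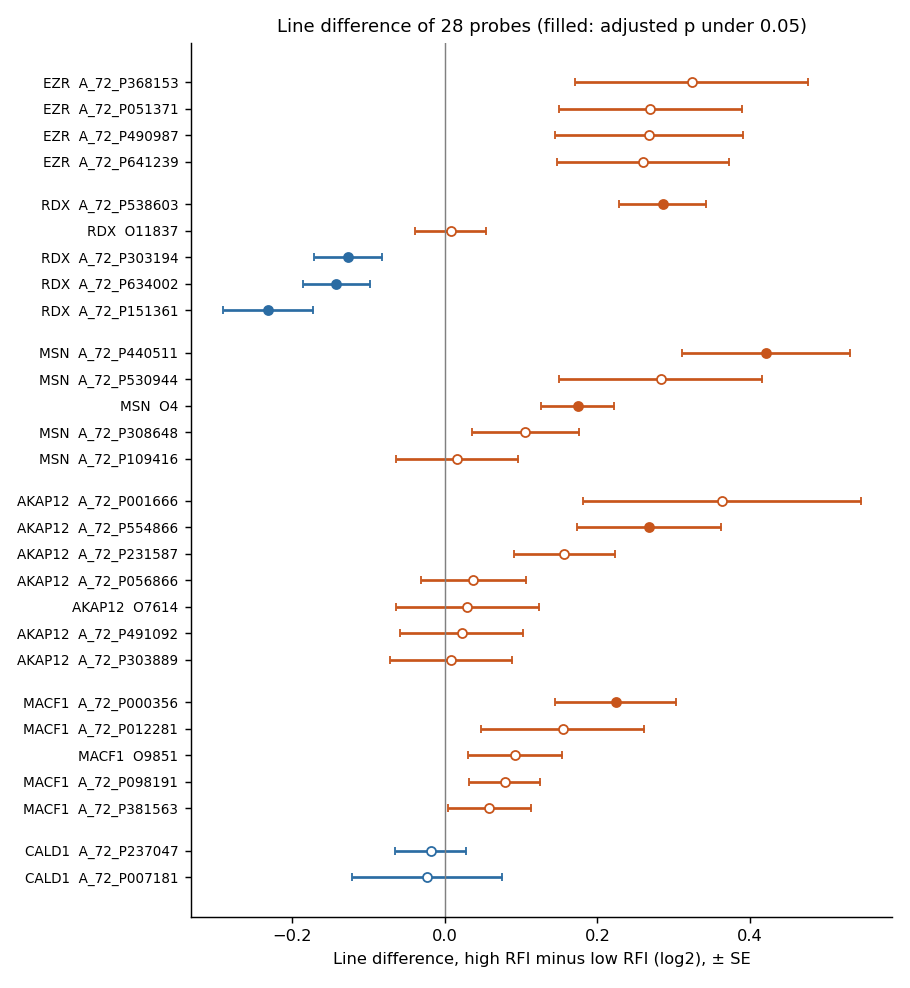
Line difference (high RFI minus low RFI, log2 scale) of the 28 probes with its standard error, grouped by gene; filled points passed the adjusted threshold of 0.05 in limma. The 4 EZR probes sit together near 0.3 without passing, while the RDX probes lie on both sides of 0, from -0.23 to 0.29.

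Radixin gave the clearest line differences, and they did not run one way. With the HF diet, probe A_72_P151361 lay between 3.0 and 3.76 (median 3.34) in the low line and between 2.87 and 3.33 (median 3.1) in the high line. With the LF diet the limits were 3.0 and 3.74 (median 3.36) in the low line and 2.67 and 3.45 (median 3.19) in the high line. The lines overlapped, but 22 of the 24 high RFI pigs lay below the median of the low line on this probe. Its line difference was -0.23 ± 0.06 (SE, adjusted p = 0.00525), a fold of 0.851.

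Probes A_72_P634002 and A_72_P303194 of RDX were also lower in the high RFI line. The first had medians of 4.32 (low) and 4.23 (high) on the HF diet and of 4.39 and 4.28 on the LF diet, and fell by 0.14 ± 0.04 (adjusted p = 0.0215). The second had medians of 0.41 and 0.31 on the HF diet and of 0.40 and 0.29 on the LF diet, and fell by 0.13 ± 0.04 (adjusted p = 0.0426). Both differences are smaller than that of A_72_P151361, and neither passed without a filter on dim probes or with another background correction.

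Probe A_72_P538603 of RDX went the opposite way and had the smallest adjusted p of all 28 probes. In pigs fed HF it ranged from -0.24 to 0.14 (median -0.02) in the low line and from -0.16 to 0.53 (median 0.24) in the high line. In pigs fed LF it ranged from -0.37 to 0.32 (median -0.0034) in the low line and from -0.03 to 0.64 (median 0.30) in the high line. Of the 24 high RFI pigs, 22 lay above the median of the low line, and the difference was 0.29 ± 0.06 (adjusted p = 0.000495), a fold of 1.22. It was the only one of the 28 probes that passed on each diet taken alone, with 0.27 on the HF diet (adjusted p = 0.0388) and 0.31 on the LF diet (adjusted p = 0.0288), although with no filter on dim probes these calls were lost (adjusted p of 0.106 and 0.0519). The high line was above the low line on all 6 slides, by 0.13 to 0.43. The order of the group means was low RFI on HF, low RFI on LF, high RFI on HF and high RFI on LF, and of the pairs that cross line and diet only the outer one passed, with low RFI on HF 0.32 below high RFI on LF (adjusted p = 0.00634). The fifth RDX probe, O11837, did not differ beyond its error between the lines (0.01 ± 0.05, adjusted p = 0.932).

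**Figure D2:**
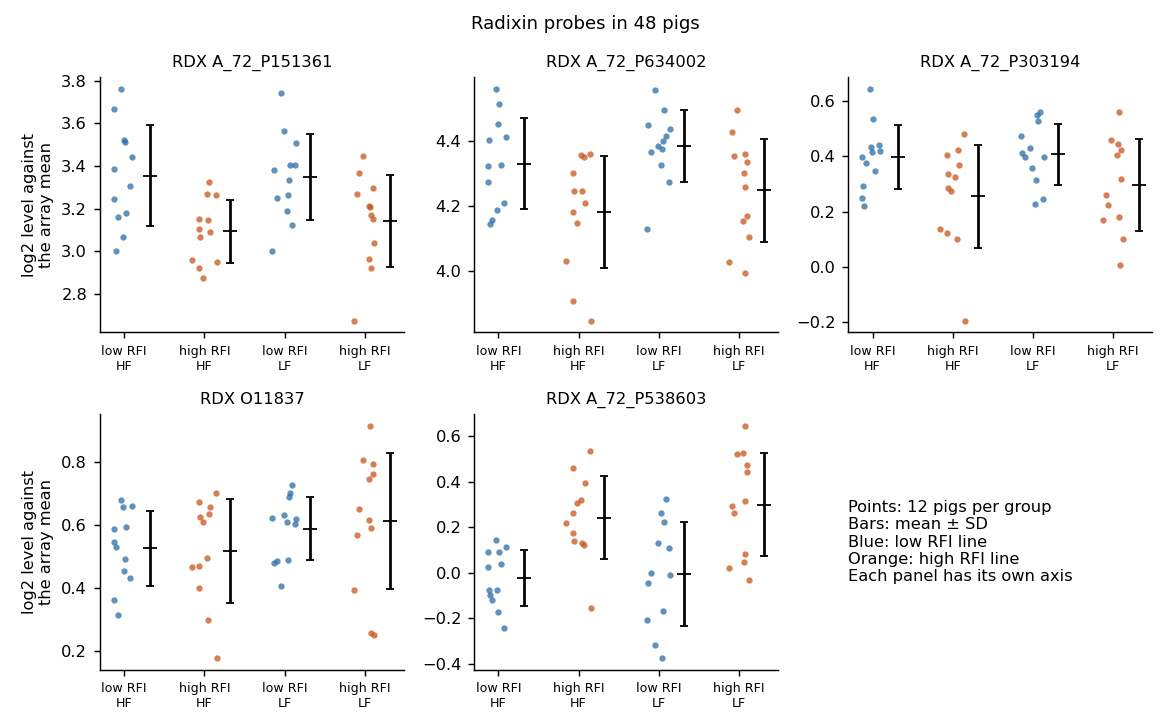
Levels of the 5 radixin probes (log2 against the array mean) in the 4 groups of 12 pigs, with the mean and SD beside the points; each panel has its own axis. A_72_P151361, A_72_P634002 and A_72_P303194 were lower in the high RFI line on each diet, A_72_P538603 was higher and O11837 showed no line difference beyond its error.

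Of these RDX probes 3 overlap in sequence. A_72_P538603 shares its first 47 bases with O11837, and its last 13 bases are the first 13 of A_72_P303194. The stretches shown are bases 31 to 60 of the first 2 probes and bases 1 to 30 of the third, and the capitals mark the bases of A_72_P538603 that lie past O11837 and are shared with A_72_P303194.
RDX O11837: accatccttggttttctttttcttttgggc
RDX A_72_P538603: ttctttttcttttgggcCAGGGAATGGAGA
RDX A_72_P303194: CAGGGAATGGAGAacagtgttccatcacct

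Because A_72_P538603 shares sequence with both other probes, the 3 were also compared within each pig, which removes the scaling between arrays. They were chosen for their unlike line differences, so these values are a description with no test. The level of A_72_P538603 minus that of O11837 ranged from -0.86 to -0.34 (median -0.54) in the 24 low RFI pigs and from -0.57 to -0.17 (median -0.27) in the 24 high RFI pigs. The lines overlapped little, with 23 of 24 high RFI pigs above the low line's median and 18 above every low RFI pig. The mean was -0.57 ± 0.15 (SD) in the low line and -0.29 ± 0.11 in the high line, a difference of 0.28. It was above 0 on all 6 slides (0.12 to 0.43). A_72_P303194 minus O11837 differed the other way, by -0.14, on all 6 slides (-0.17 to -0.06). A_72_P538603 minus A_72_P303194 differed by 0.41. No direction is given for RDX as a whole. The part of probe sequence or transcript form in this was not tested.

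**Figure D3:**
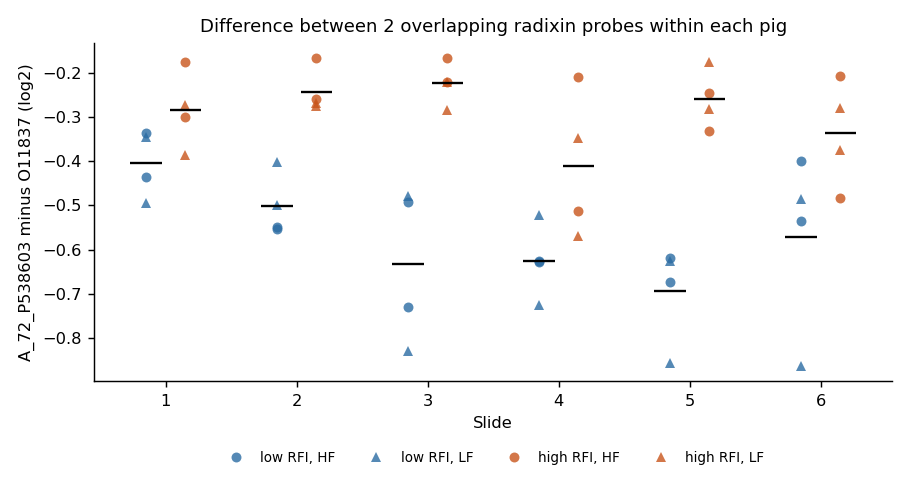
Level of RDX probe A_72_P538603 minus that of the overlapping probe O11837 in each pig (log2), by slide, line and diet, with the mean of each line on a slide as a bar. The bar of the high RFI line lies above that of the low RFI line on all 6 slides.

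The 4 EZR probes gave like line differences and moved together between pigs, but none passed the test between lines. Ezrin is the family member best known from microvilli. Under the HF diet, the low line spread from 2.14 to 3.42 (median 3.09) on probe A_72_P051371 and the high line from 2.24 to 3.90 (median 3.07). Under the LF diet, the low line spread from 2.23 to 3.71 (median 2.95) and the high line from 2.50 to 3.89 (median 3.34). The groups overlapped over most of their range. The line differences of the 4 probes were 0.26 to 0.32 (folds of 1.20 to 1.25) with adjusted p of 0.106 to 0.138, and all 4 had an unadjusted p under 0.05, as did 31% of all probes. The differences were 0.10 to 0.17 on the HF diet and 0.40 to 0.48 on the LF diet, of which none passed, and the interaction of line and diet did not pass either (adjusted p = 0.999 for each). The line difference of A_72_P051371 ran from -0.28 to 0.79 over the slides, and was above 0 on 5 of 6.

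The EZR probes correlated at 0.79 to 0.99 (median 0.88 over 6 pairs) in the deviations of the 48 pigs from their group means, the closest of the 6 genes. The highest value belongs to A_72_P051371 and A_72_P641239, which share a run of 39 bases and so are not separate measurements. Their first 30 bases are shown, with the shared run in capitals.
EZR A_72_P051371: gttggaCCTGCACCTGAATACTGATCAGCC
EZR A_72_P641239: CCTGCACCTGAATACTGATCAGCCATAGAG

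Moesin, the family member best known from endothelial cells and leukocytes, was higher in the high RFI line on 2 of its 5 probes. Probe O4 had a lowest value of 4.0, a median of 4.35 and a highest value of 4.57 in the low line fed HF, and of 4.23, 4.5 and 5.05 in the high line. In the LF groups these values were 4.26, 4.42 and 4.57 for the low line and 4.34, 4.58 and 4.74 for the high line. Of the 24 high RFI pigs, 11 lay above every low RFI pig. The difference was 0.17 ± 0.05 (adjusted p = 0.00955), a fold of 1.13, and was above 0 on all 6 slides (0.06 to 0.30).

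The second, A_72_P440511, was the dimmest of the MSN probes against background. It was well above background on 8 of 12 low RFI and 12 of 12 high RFI arrays of the HF diet, and on 6 and 10 of those of the LF diet. Its HF levels ran from -5.11 to -2.88 (median -3.73) in the low line and from -4.04 to -2.83 (median -3.15) in the high line. Its LF levels ran from -4.11 to -3.23 (median -3.68) and from -3.90 to -2.83 (median -3.29). The high line was mostly higher, with 21 of its 24 pigs above the low line's median, and the difference was 0.42 ± 0.11 (adjusted p = 0.00672), a fold of 1.34. With normexp background correction it was 0.06 and did not pass.

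The other MSN probes did not pass. A_72_P109416 and A_72_P308648, which correlated at 0.81 with each other, differed by 0.02 and 0.11 (adjusted p of 0.919 and 0.309). The fifth, A_72_P530944, is assigned to moesin in the VIP list for the feed conversion ratio, but the array names it ezrin-like (LOC100153898) from the same sequence record as EZR probe A_72_P368153, whose start lies 131 bases before its own. The first 30 bases of these probes, and of MSN probe O4, are shown for identification, with no capitals.
A_72_P368153: atttcctacctggttgaaacttgataaaaa
A_72_P530944: ctcagaagcttttcttcctgcaagtgaagg
MSN O4: ggaggggtttatgcttaacccatgttctgt

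Across the 48 pigs, A_72_P530944 followed the EZR probes more closely than the moesin probes. Its deviations from the group means correlated with those of the 4 EZR probes at r = 0.78 to 0.92 and rho = 0.75 to 0.93 (permutation within groups, adjusted p = 0.000164 and 0.000199 over 378 probe pairs). With the other 4 MSN probes r was -0.06 to 0.47 and rho -0.05 to 0.42 (permutation, adjusted p of 0.0144 to 0.825 for r). Without the 2 pigs farthest from the median, r was 0.73 to 0.91 with EZR and 0.02 to 0.33 with MSN, and with slide means removed it was 0.79 to 0.92 and -0.16 to 0.54. The MSN probes also agreed little among themselves, at r = -0.07 to 0.81 (median 0.35 over 10 pairs, A_72_P530944 included). A low r with single MSN probes was thus not particular to A_72_P530944. A_72_P530944 stands under MSN here by that listing alone. Its line difference was 0.28 ± 0.13 (adjusted p = 0.137), within the range of the EZR probes.

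**Figure D4:**
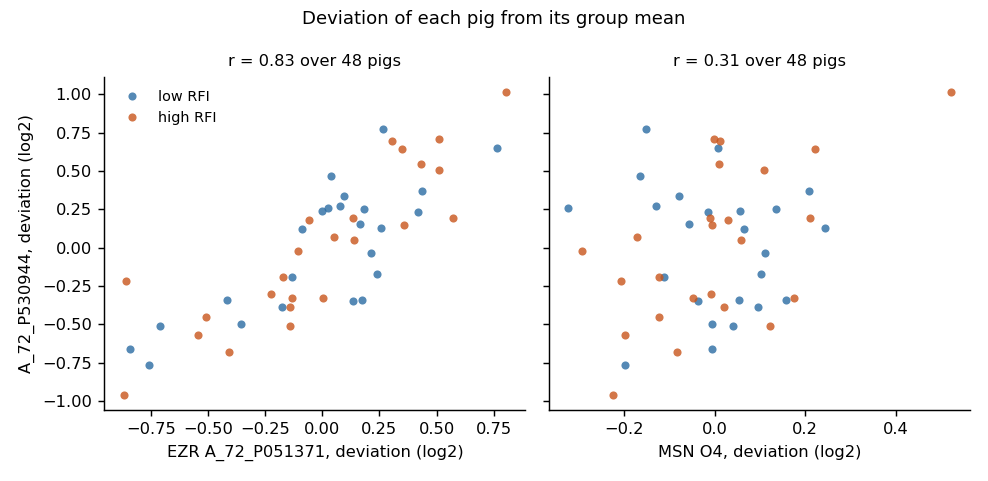
Deviation of each of the 48 pigs from its group mean (log2) for probe A_72_P530944, listed as moesin in a VIP list, against an EZR probe (left) and the MSN probe O4 (right). The points follow a line against EZR (r = 0.83) and scatter against MSN (r = 0.31).

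The family members are alike in sequence, but no probe was found to overlap one of another member gene. Of the 406 pairs that the 29 probes make, 3 shared a run of at least 15 bases, or of at least 10 at their ends, on either strand, and all 3 lay within EZR or RDX.

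AKAP12 differed between the lines on the HF diet, on 2 of its 7 probes. These were A_72_P231587 and A_72_P554866, which are shown by their first 30 bases because they carry this difference.
AKAP12 A_72_P231587: cccacgcttttatgaacaatgtagcattat
AKAP12 A_72_P554866: aagacacgtagaagaaaacgaacgctgctg
Among pigs fed HF, A_72_P231587 ranged from 0.97 to 1.54 (median 1.28) in the low line and from 1.22 to 2.07 (median 1.59) in the high line. Among pigs fed LF, it ranged from 1.29 to 1.74 (median 1.51) and from 1.01 to 2.01 (median 1.42). On the HF diet 9 of 12 high RFI pigs lay above every low RFI pig, and on the LF diet 3 of 12 did, while 3 others lay below every low RFI pig.

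The HF difference of A_72_P231587 was 0.37 ± 0.09 (adjusted p = 0.0148), a fold of 1.29 (adjusted p = 0.064 with no filter on dim probes), and its LF difference was -0.06 ± 0.09 (adjusted p = 0.806). Probe A_72_P554866 ranged from -2.80 to -1.86 (median -2.14) in the low line and from -2.38 to -1.18 (median -1.66) in the high line on the HF diet. There 9 of 12 high RFI pigs lay above every low RFI pig, with a difference of 0.51 ± 0.13 (adjusted p = 0.0186), a fold of 1.43. On the LF diet it was 0.02 ± 0.13 (adjusted p = 0.954), and its average over the diets was 0.27 ± 0.09 (adjusted p = 0.0438), a call that was lost under 5 of 9 alternatives (0.14 to 0.28, adjusted p up to 0.0872). That the diets differ in the line effect was not shown: the interaction was 0.43 (unadjusted p = 0.00207) and 0.49 (unadjusted p = 0.0131) for these probes, with an adjusted p of 0.999 for each. No probe of the 42125 passed for the interaction in limma, and 4.45% had an unadjusted p under 0.05.

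The other AKAP12 probes gave no line difference that passed. O7614, A_72_P491092, A_72_P056866 and A_72_P303889 differed by 0.01 to 0.04 between the lines and correlated with each other at 0.53 to 0.82. These are averages of 0.10 to 0.17 on the HF diet and -0.11 to -0.04 on the LF diet, of which none passed. The probes A_72_P231587 and A_72_P554866 correlated at 0.62 with each other, and A_72_P001666, from a VIP list, correlated at 0.07 to 0.30 with all the others. A_72_P001666 had the widest spread of the 28 probes, with an SD over pigs of 0.67, and a line difference of 0.36 ± 0.18 (adjusted p = 0.165). Its lowest pig stood at -2.33.

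**Figure D5:**
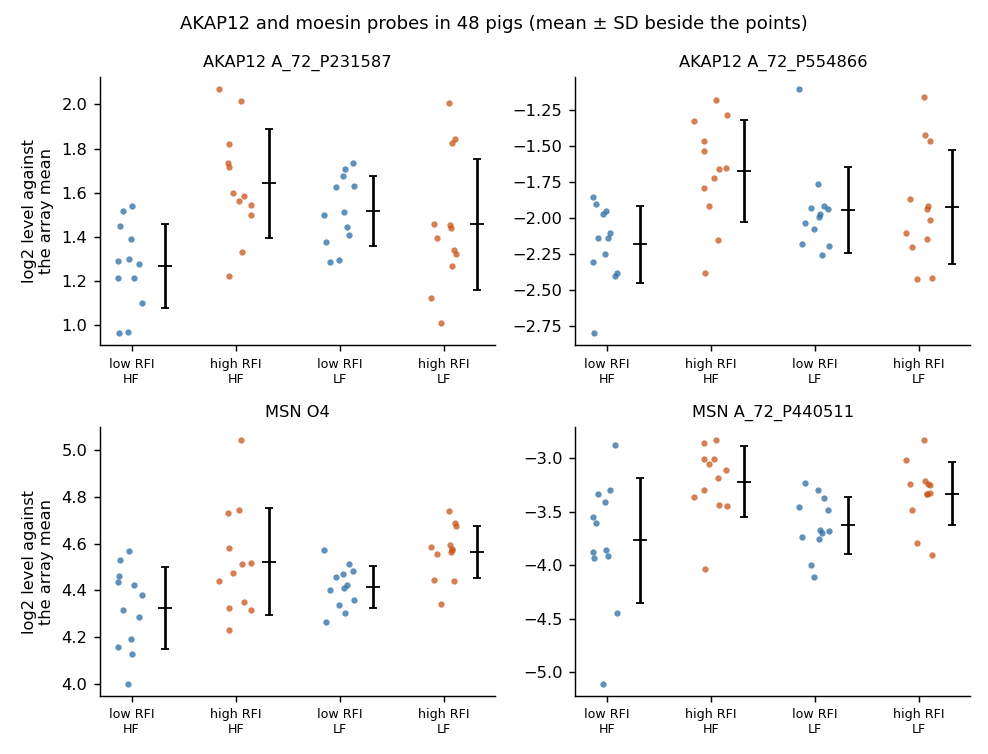
Levels of AKAP12 probes A_72_P231587 and A_72_P554866 and of MSN probes O4 and A_72_P440511 (log2 against the array mean) in the 4 groups of 12 pigs, with the mean and SD beside the points. The AKAP12 probes stand apart between the lines on the HF diet (differences of 0.37 and 0.51) and not on the LF diet (-0.06 and 0.02). The MSN probes have higher means in the high RFI line on each diet. Within single diets, of the MSN differences only that of A_72_P440511 on the HF diet passed in limma.

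The line differences of MACF1 were above 0 on all 5 probes, of which A_72_P000356 passed. In the HF groups this probe ranged from -2.64 to -1.64 (median -1.90) for the low line and from -2.42 to -0.83 (median -1.77) for the high line. In the LF groups it ranged from -2.08 to -1.53 (median -1.83) and from -2.03 to -1.23 (median -1.54). The high line was higher with wide overlap, by 0.22 ± 0.08 (adjusted p = 0.0462). This call was lost under 5 of 9 alternatives (0.11 to 0.24, adjusted p up to 0.114). The probe comes from a VIP list and the array gives it no gene symbol. The other MACF1 probes differed by 0.06 to 0.15 (adjusted p of 0.246 to 0.493), one of which, A_72_P098191, lacked 1 low RFI pig whose spot was an outlier. With that spot kept, its difference turned from 0.08 to -0.21.

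MACF1 also held the lowest diet p-values of the 28 probes. Probe O9851 was 0.17 ± 0.06 lower on the HF than on the LF diet (unadjusted p = 0.00767, adjusted p = 0.194) and A_72_P012281 0.29 ± 0.11 lower (unadjusted p = 0.0101, adjusted p = 0.217). They were lower on the HF diet on all 6 slides. Neither passed, and no other of the 28 probes had an unadjusted p under 0.05 for the diet. Between the diets 0 of the 28 probes thus passed in limma, where 0.42% of all probes did and 13.1% had an unadjusted p under 0.05. Between low RFI on HF and high RFI on LF, the groups that differ in line and diet, 3 MACF1 probes passed, A_72_P000356 by -0.35 (adjusted p = 0.0313), O9851 by -0.26 (adjusted p = 0.0385) and A_72_P012281 by -0.44 (adjusted p = 0.0459). In that pair 5 of the 28 probes passed, all lower on the low RFI, HF side, where 12.5% of all probes did (6.11% lower).

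Neither CALD1 probe passed in any comparison. On A_72_P237047 the HF levels were 4.85 to 5.42 (median 5.08) in the low line and 4.97 to 5.44 (median 5.09) in the high line, and the LF levels were 4.93 to 5.37 (median 5.23) and 4.85 to 5.31 (median 5.0). The groups overlapped over nearly their whole range. Its line difference was -0.02 ± 0.05 (adjusted p = 0.824), and that of A_72_P007181, from a VIP list, -0.02 ± 0.10 (adjusted p = 0.902). Both had an unadjusted p above 0.05 in every comparison of the 4 groups.

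Within each diet, 5 of the 28 probes passed between lines on the HF diet (2 of RDX, 1 of MSN and 2 of AKAP12), where 6.39% of all probes did. On the LF diet 1 passed, where 2.47% of all probes did. The smaller count on the LF diet does not show a smaller effect there, since no interaction passed.

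Among the genes that work with these linkers, 6 of the 52 measured (11.5%) passed between the lines, against 16.4% of all probes, each gene being read on its probe of highest mean level. Over all 221 probes of these genes 17.2% passed, 23 higher and 15 lower. Of 13 measured partners and regulators of ezrin, radixin and moesin, 1 was higher in the high RFI line, the membrane proteoglycan syndecan-2 (SDC2, 0.33 ± 0.09, adjusted p = 0.01), and 12 did not pass, with the kinase ROCK2 at -0.14 (adjusted p = 0.067). Of 15 spectrin, plakin and dystrophin linkers, dystrophin (DMD), which links actin to the membrane complex of the muscle fibre, was lower (-0.17 ± 0.04, adjusted p = 0.00429). The probes of dystonin (DST), the spectraplakin related to MACF1, disagreed. Its brightest probe was higher (0.26 ± 0.05, adjusted p = 0.000317), while 3 of its 5 probes were lower, down to -0.32, so that no direction is given for the gene. Of 10 genes of kinase A and C anchoring, the catalytic subunit PRKACA (-0.13 ± 0.03, adjusted p = 0.00637) and the anchoring protein AKAP9 (-0.20 ± 0.05, adjusted p = 0.0104) were lower and none higher. Of 14 actin regulators around caldesmon, tropomyosin 4 (TPM4) was higher (0.19 ± 0.07, adjusted p = 0.0409). The median line differences of these lists were -0.03, -0.01, -0.10 and -0.04, beside -0.03 over all probes, and no gene of the 4 lists passed between the diets.

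Some markers of other cell types differed between the lines, beside 6.57% of all probes higher and 9.85% lower. Each gene was read on its probe of highest mean level. Of 5 leukocyte markers 2 were higher in the high RFI line (CD14 by 0.30 and CSF1R by 0.94), 2 of 6 fibroblast markers (COL1A1 by 0.37 and COL1A2 by 0.32), 2 of 6 adipocyte markers (FABP4 by 0.32 and LIPE by 0.31) and 1 of 7 endothelial markers (TEK by 0.24). The CSF1R probe was dim, well above background on 35 of the 48 arrays, and its difference under another background correction was not tested. The 4 LIPE probes ran from -0.10 to 0.33, of which 2 passed. Other markers of these lists lay below 0 without passing. They were CD3E (-0.14), PTPRC (-0.03), DCN (-0.06), LUM (-0.02), LEP (-0.001), CDH5 (-0.15) and PECAM1 (-0.06). Other probes of some of these genes lay above 0, up to 0.32 for PTPRC, 0.28 for LUM, 0.06 for PECAM1, 0.03 for LEP and 0.02 for DCN. All probes of CD3E and CDH5 were below 0, and no probe of these genes was called. Of the 9 muscle fibre markers 2 were lower (TTN by -0.26, with its other probe at 0.75 and not passing, and MYH2 by -0.12), and no slow fibre, smooth muscle or erythroid marker passed. All 9 fibre markers were below 0 on these probes (median -0.11). Further fibre probes were called lower, of CKM (6 of 11), MYLPF (3 of 5), TNNT3 (3 of 5), NEB (1 of 3) and TNNC2 (1 of 6). No fibre marker probe was called higher. The mean level of the 5 leukocyte markers ranged from -1.96 to -0.83 and from -1.57 to -0.37 in the low and high line fed HF, and from -1.54 to -0.97 and from -1.51 to -0.67 in those fed LF. The mean level of the 7 endothelial markers ranged from 1.40 to 2.24 and from 1.37 to 2.19 on the HF diet and from 1.68 to 2.1 and from 1.48 to 2.35 on the LF diet. The part of these cell types in the line differences above was not tested.

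Within the groups, few pairs of member genes varied together. Over the 48 pigs, the deviations from the group means were correlated between genes at the probe of highest mean level of each. Of the 15 gene pairs, EZR and MSN correlated with r = 0.52 and rho = 0.48 (permutation within groups, p = 0.00035 and 0.0008, adjusted p = 0.00525 and 0.012). Without the 2 pigs farthest from the median r was 0.46, within the scan days it was 0.41 and 0.50, and with slide means removed it was 0.40 (adjusted p = 0.0825). MSN and MACF1 passed by rho alone (0.42, permutation, adjusted p = 0.0447), with r = 0.38 (adjusted p = 0.101), and not with slide means removed (rho = 0.36, adjusted p = 0.122). No other pair passed at these probes. With each gene as the mean of its kept probes, EZR and MACF1 passed by r (0.41, permutation, adjusted p = 0.0303) and not by rho (0.38, adjusted p = 0.0686). With the ezrin-like probe also left out of MSN, MSN and CALD1 passed (r = 0.52, rho = 0.49, permutation, adjusted p = 0.0108 and 0.0169). With that probe kept in, MSN and CALD1 did not pass (r = 0.41, permutation, adjusted p = 0.0575). At the probes of highest mean level their r was -0.01 and their rho -0.17, so this relation depended on the probes used. RDX, at probe A_72_P634002, had r from -0.31 to -0.08 against EZR, MSN, AKAP12 and MACF1, of which none passed. Against EZR it was 0.26 within one of the scan days. With each gene as the mean of its kept probes, these r were -0.24 to -0.03. Against CALD1, RDX had r = 0.23 at that probe and -0.31 as the mean, and neither passed.

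Against the mean level of endothelial, smooth muscle, fibroblast and adipocyte markers, 1 of 24 relations passed. It was that of MSN with the endothelial list (r = 0.55, rho = 0.49, permutation, p = 0.00034 and 0.00102, adjusted p = 0.00816 and 0.0245). It was 0.50 without the 2 pigs farthest from the median and 0.51 with slide means removed (adjusted p = 0.0127).

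By the same deviations, the genes most like each member over the 48 pigs were as follows, out of 23209 to 23213 named probes and with no test. EZR was followed by ALOX5AP (r = 0.68), the activating protein of 5-lipoxygenase, and LOC100522887 (0.68), after the ezrin-like probe itself. RDX was followed by BCAP29 (0.75), DYRK1A (0.73) and PSMA4 (0.72), and MSN by LOC100152890 (0.79), LITAF (0.78) and STAT6 (0.77), a transcription factor of cytokine signalling. AKAP12 had no close match, the highest being AUH and IFNGR1 (0.59 each) and BCAR3 (0.55). MACF1 was followed by PEA15 (0.79), UCK2 (0.77) and S100A1 (0.76), and CALD1 by ZBTB38 (0.76), ATXN3 (0.73) and LRRK2 (0.72).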

How the data were processed

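Total RNA of longissimus muscle from 48 barrows (12 per line and diet) was hybridised on single-colour 60 K arrays. The authors deposited spot intensities of each array, background-subtracted and detrended by Agilent Feature Extraction per the file headers, and a table of log2 values. Checked against the scanner values, the table (34472 probes) gives each spot's median intensity in log2, shifted so that every array has a median of 0, and it served as an alternative. The submitters' processing notes name R 2.10.0. The study's methods filtered spots, took log2 and centred each pig on its mean, and the genome build is not given in the sources used here.

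From the scanner files, control and outlier spots were left out, spots of one probe averaged, and the log2 of the processed signal shifted by the array's mean, taken over the 42125 probes that were detected well above background on 12 or more of the 48 arrays. Low signals sit close to background, so differences of dim probes depend on its correction. The number of arrays limits the precision. Means of the 4 groups, taken from the source labels, were fitted in R 4.3.3 by limma 3.58.1, with Benjamini-Hochberg adjustment at 0.05. Tested on simulated data for the line comparison (42125 probes, 200 given a known change), this fit called 80.0% of true differences of 0.5 and 97.5% of those of 1. The simulated noise was independent between probes, and 6919 probes were called in the data. The line differences of the 28 probes were at most 0.42 in size, so these rates do not tell how often differences of that size are found.

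Correlations used Pearson's r and Spearman's rho of deviations from group means with 100000 two-sided permutations of pigs within groups (scipy 1.17.1, numpy 2.4.6 and pandas 2.3.3 under Python 3.11.15, with figures by matplotlib 3.10.9). Alternatives covered the scaling (75th percentile, quantile), the background (normexp, offset 50), the filter, the deposited table, the methods' variance analysis, a block for slide and the keeping of outlier spots. The comparison of RDX probes within pigs, the leukocyte correlations and the removal of the ezrin-like probe were added after the data were seen. All kept probes of the 6 genes are named. From the pathway lists every gene that passed is named, and for each member the 3 most alike genes. The members and lists were chosen with earlier results of these data known. The pigs of the other array and the individual feed efficiency traits were not analysed here.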

Additional observations from a re-analysis of the deposited data

How the results depend on the processing

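The line call held for RDX probes A_72_P538603 (0.26 to 0.30) and A_72_P151361 (-0.24 to -0.19) and for MSN probe O4 (0.17 to 0.21) under all 9 alternatives. The count of 8 of the 28 probes called between lines became 3 with normexp background correction, 4 without a filter on dim probes and 4 in the deposited table, which holds 26 of the 28 probes, and the probes called there were always among the 8. Of all probes, 13.5%, 6.42% and 17.8% were called in these 3 settings, beside 16.4% in the main fit. A larger share among the 28 probes than among all probes was thus not found with every processing. Without the filter, the count on the HF diet fell from 5 to 1 and that on the LF diet from 1 to 0, with 60305 probes in the adjustment. AKAP12 probe A_72_P554866 and MACF1 probe A_72_P000356 lost the line call under 5 alternatives each. Over 294 combinations of a probe difference and an alternative, 263 kept direction and side of the threshold, 24 lost the call and 7 turned sign. The 263 include many differences that passed in neither fit. All 24 losses fell among the differences called in the main fit, so the share of calls lost is larger than 24 of 294. The sign turned for MACF1 A_72_P098191 with outlier spots kept (-0.21) and in the deposited table (-0.26), for AKAP12 A_72_P303889 with normexp (-0.0156) and in the deposited table (-0.0289), for CALD1 A_72_P237047 with quantile normalization (0.00958) and normexp (0.0017), and for CALD1 A_72_P007181 with normexp (0.0041). None of these probes was called. The cause was not tested. The correlation of EZR and MSN was 0.40 with slide means removed and no longer passed (adjusted p = 0.0825). As the mean of all kept probes it was 0.68, and 0.37 (adjusted p = 0.047; rho = 0.31, adjusted p = 0.165) without the probe that the array names ezrin-like. Slide as a block changed no line call. No paired analysis was possible because the pigs of different groups are separate animals and their numbers only name them. For dim probes such as MSN A_72_P440511, signal over background limits what can be shown.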

Other observations

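The leukocyte list was set against the member genes after the values above had been seen, over the same 48 pigs and as deviations from the group means. RDX, at probe A_72_P634002, was lower in pigs with higher mean levels of the 5 leukocyte markers (r = -0.61, rho = -0.62, permutation within groups, p = 3e-05 and 2e-05, adjusted p = 0.00018 and 0.00012 over 6 genes). MSN, at probe O4, was higher in them (r = 0.49, rho = 0.43, permutation, p = 0.00202 and 0.00388, adjusted p = 0.00606 and 0.0116). Without the 2 pigs farthest from the median, r was -0.64 and 0.50, and with slide means removed it was -0.60 and 0.46. EZR passed by rho alone (0.35, permutation, adjusted p = 0.0401), with r = 0.28 (adjusted p = 0.139), and not with slide means removed (rho = 0.27, adjusted p = 0.142), and AKAP12, MACF1 and CALD1 did not pass. Of the 5 markers, PTPRC, CD14 and CD3E were well above background on all 48 arrays, CSF1R on 35 and CD68 on 28.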
